A study of Mus musculus with 13 samples.

Results

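The genes described here are 10 transcripts by which tissue macrophages are recognised: Csf1r, Sfpi1, Emr1, Aif1, Mrc1, Lyve1, Cd163, Trem2, Cd68 and Cd14. They were chosen by name, as every probe whose gene symbol on the array is 1 of these 10, older symbols included. This gave 16 of 25697 probes and 10 of 18038 genes. All 10 genes passed the filter on dim probes, beside 10088 genes of the array in all.

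RNA came from cochleae of C57BL6 mice aged 3 days, sorted by flow cytometry. Every population carried the Math1-nGFP reporter, a nuclear GFP driven by the enhancer of Atoh1 (Math1), which marks hair cells. HC, the GFP-positive cells labelled as hair cells, had 4 arrays (A to D). GER, cells of the greater epithelial ridge, sorted as GFP-negative, CD271 low, CD146 high and CD326-positive, had 3 arrays (A to C). DC, labelled as Deiters' and Claudius cells, sorted as GFP-negative, CD271 low, CD146 low and CD326-positive, had 2 arrays (A and B). CD271high, the GFP-negative cells with high CD271, which the labels give as suspected cochlear macrophages, had 3 arrays (A to C). BM, cells from below the basilar membrane, sorted as GFP-negative, CD271 low and CD326-negative, had 1 array. The 13 arrays lay on 2 beadchips, both of which held CD271high, HC and GER arrays. Nothing in the labels ties the replicates to separate animals. A p-value here therefore reflects variation among these arrays, and that variation may be technical.

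Macrophages settle in the cochlea before and after birth and are found along its nerves, vessels and supporting tissue. They are kept alive by signals through the CSF-1 receptor, their gene programme depends on the transcription factor PU.1, and they take up debris through scavenger receptors, lectins and lipid receptors. CD271 is the nerve growth factor receptor, a surface protein known above all from neurons and glia. Each value below is a log2 level after background correction and quantile normalization, and each ± is the standard error (SE) of a fitted difference. A probe counts as detected on an array when its detection p is under 0.01. The lowest log2 level that counted as detected lay between 6.76 and 7.35 on the 13 arrays. Between 40.2% and 45.2% of probes were detected on an array. Levels of different probes are not comparable, so each gene is set only against itself. In sorted bulk samples, fewer cells of a type and less RNA per cell cannot be told apart.

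The labelled populations were first checked against their markers. The 8 hair cell genes listed had a mean log2 level of 13.31 to 13.58 on the HC arrays and at most 8.31 on any other. The 8 supporting cell genes were highest on the DC arrays, at 11.27 and 11.31. Ngfr, the gene of CD271, was lower in CD271high than in the mean of HC, GER and DC (-1.97 ± 0.26, adjusted p = 6.6e-05), against the name of the gate. The population is called CD271high throughout, after its label. Mcam, the gene of CD146, did not pass in that comparison (0.48 ± 0.19, adjusted p = 0.061), and neither did Atoh1 (-0.27 ± 0.30, adjusted p = 0.51), which was detected on 2 HC arrays only.

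RefSeq promoter windows on GRCm38.p6 were matched for 5 of the 10 genes (Mrc1, Cd163, Trem2, Aif1 and Cd68), and the 3 that hold the PU box are shown because Sfpi1, whose protein PU.1 recognises that box, is itself among the genes measured. For the 10 genes the match left out a chromosome, which the share over all windows given below includes. The other genes (Csf1r, Lyve1, Emr1, Sfpi1 and Cd14) had no matched window and were not searched. Because of the chromosome left out, lack of a match does not mean that a gene has no promoter window. The motif searched was GAGGAA on both strands, so that it also reads TTCCTC, and no other motif was searched. Each window covers 250 bases before the annotated start, on the strand of the gene, shortened to 235 bases for Cd163 and 219 for Aif1 where the annotated gene begins earlier. Capitals mark the motif.
Mrc1, chr2:14229164-14229413, plus strand: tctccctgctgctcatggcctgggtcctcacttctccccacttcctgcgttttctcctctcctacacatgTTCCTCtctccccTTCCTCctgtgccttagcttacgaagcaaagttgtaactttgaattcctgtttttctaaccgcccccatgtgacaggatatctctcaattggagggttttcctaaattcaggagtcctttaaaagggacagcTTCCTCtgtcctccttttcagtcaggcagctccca
Trem2, chr17:48346151-48346400, plus strand: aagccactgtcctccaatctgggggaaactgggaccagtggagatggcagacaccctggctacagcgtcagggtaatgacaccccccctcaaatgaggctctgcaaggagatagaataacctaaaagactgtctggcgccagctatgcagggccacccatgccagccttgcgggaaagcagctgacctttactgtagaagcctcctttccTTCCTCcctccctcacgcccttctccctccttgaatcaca
Cd68, chr11:69666171-69666420, minus strand: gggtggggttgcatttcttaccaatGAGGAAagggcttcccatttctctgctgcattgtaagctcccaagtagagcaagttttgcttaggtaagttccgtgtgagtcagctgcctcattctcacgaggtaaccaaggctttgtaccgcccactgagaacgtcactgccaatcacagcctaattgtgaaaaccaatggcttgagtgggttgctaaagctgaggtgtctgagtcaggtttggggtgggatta

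The Mrc1 window held 3 matches, all as TTCCTC, with 174, 161 and 29 bases between the match and the end of the window. The Trem2 window held 1 match, as TTCCTC, 34 bases from its end. The Cd68 window held 1 match, as GAGGAA, 219 bases from its end. Of all 32851 promoter windows of 250 bases, 23.3% held the motif. A match describes the letters only, and these data hold no measurement of binding.

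CD271high was compared with the mean of HC, GER and DC to ask in which population the macrophage genes are read. All 10 were higher in CD271high, and for each of them every CD271high array lay above every HC, GER and DC array. Over all genes tested, 19.4% were called higher in this comparison, and 12.7% had every CD271high array above every HC, GER and DC array. The 10 log2 differences ran from 2.91 for Sfpi1 to 7.24 for Mrc1, with a median of 5.84, where the median of all genes was -0.08. Each of the genes was detected on all 3 CD271high arrays, and 5 of them (Lyve1, Cd163, Sfpi1, Cd68 and Cd14) on no other array, so that their differences rest on dim values below detection. Genes could pass the filter through CD271high alone. Without any filter and with every probe tested, all 16 probes were higher in CD271high, against 9.71% of all probes. Of the 16, 13 were detected on all 3 CD271high arrays and 1 on no array. Within beadchip 1, 10 of 10 genes were higher, by 2.81 to 7.15, where 17.4% of all genes were. Beadchip 2 lacks DC and has a single CD271high array, and there 10 of 10 were higher than in HC and GER, by 3.05 to 7.51, where 7.22% of all genes were.

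**Figure D1:**
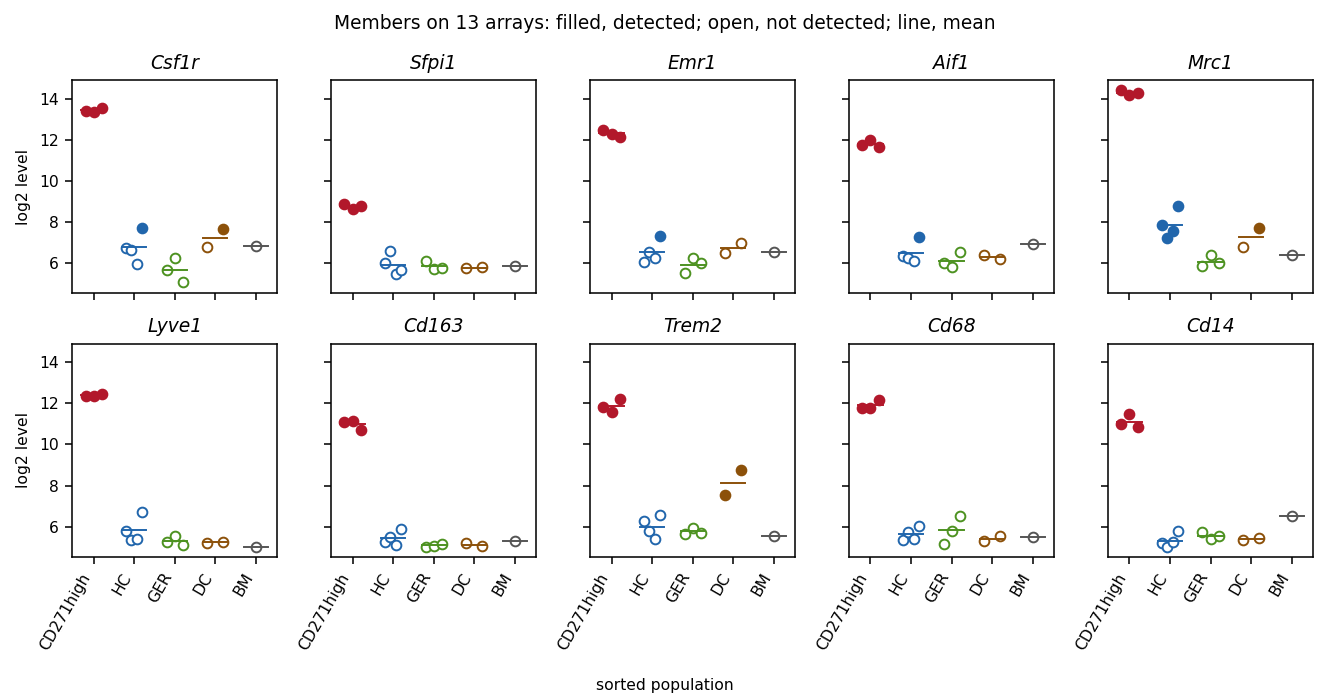
Log2 level of each of the 10 genes (vertical axis, 1 panel a gene) on each of the 13 arrays, by sorted population (horizontal axis). Filled points were detected on that array, open points were not, and the line is the population's mean; the CD271high points stand above all others in every panel, and filled points outside CD271high are found for Csf1r, Emr1, Aif1, Mrc1 and Trem2.

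Csf1r encodes the receptor of the growth factors CSF-1 and interleukin-34, on which most tissue macrophages depend. Its level was 13.38, 13.33 and 13.57 on CD271high A, B and C. It was 6.74, 6.64, 5.97 and 7.73 on HC A to D, 5.66, 6.26 and 5.10 on GER A to C, 6.79 and 7.68 on DC A and B, and 6.82 on BM. The 3 CD271high arrays lay close together and far above the rest, and outside them the probe was detected on HC D and DC B only. The difference was 6.87 ± 0.34 (117-fold, adjusted p = 1.7e-08). The order of the population means was CD271high, DC, HC, GER. DC and HC, neighbours in that order, did not differ beyond their spread (adjusted p = 0.44). A second Csf1r probe read 9.31 to 9.82 on the CD271high arrays and was detected on no other.

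Sfpi1 encodes PU.1, the transcription factor that macrophages need to develop. Its level was 8.89, 8.64 and 8.77 on the CD271high arrays. It was 6.0, 6.58, 5.47 and 5.65 on HC, 6.10, 5.70 and 5.78 on GER, 5.75 and 5.81 on DC, and 5.84 on BM. It was undetected on every array outside CD271high, and HC B was the highest of those. The fitted difference was 2.91 ± 0.20 (adjusted p = 3.5e-07). For a probe undetected on the whole dim side, only a lower bound of the fold is given, computed with each dim array at its lowest detected level or, where higher, the probe's own. On this basis Sfpi1 was at least 3.13-fold higher. HC, GER and DC did not differ between neighbours in the order of means (adjusted p of 0.84 or more).

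Emr1 encodes an adhesion G protein-coupled receptor that is a classical surface marker of mouse macrophages, and Aif1 encodes Iba1, a calcium-binding protein of the macrophage cytoskeleton. Emr1 ranged from 12.16 to 12.50 in CD271high and from 5.53 to 7.33 over HC, GER and DC (difference 5.92 ± 0.25, 60.6-fold, adjusted p = 5.5e-09). Aif1 ranged from 11.64 to 11.97 in CD271high and from 5.81 to 7.26 over HC, GER and DC (5.48 ± 0.23, 44.7-fold, adjusted p = 5.5e-09). For both genes HC D was the only array outside CD271high on which the probe used was detected. On another bright probe of Emr1 the difference was 6.91 ± 0.44. Without DC A that other probe became the brightest and stood for the gene, and the difference was 6.57, so the probe changed along with the arrays. By the probes used over all arrays, neither gene differed between neighbours among HC, GER and DC in the order of means (adjusted p of 0.099 or more).

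Mrc1 encodes the mannose receptor CD206, a lectin that takes up mannose-bearing glycoproteins. Its level was 14.43, 14.19 and 14.27 on the CD271high arrays, from raw signals of 22020, 22084 and 20368. It was 7.86, 7.21, 7.54 and 8.78 on HC, 5.84, 6.38 and 6.0 on GER, 6.80 and 7.71 on DC, and 6.39 on BM. The groups did not overlap, yet Mrc1 was detected on all 4 HC arrays and on DC B, more arrays outside CD271high than for any other of the genes. The difference was 7.24 ± 0.29 (151-fold, adjusted p = 3.5e-09). The order of means was CD271high, HC, DC, GER, and neither HC and DC (adjusted p = 0.25) nor DC and GER (adjusted p = 0.16) differed beyond their spread.

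Lyve1 encodes a hyaluronan receptor of lymphatic endothelium that many tissue-resident macrophages also carry, and Cd163 a scavenger receptor for haemoglobin bound to haptoglobin. Lyve1 was 12.38, 12.37 and 12.44 on the CD271high arrays and 5.10 to 6.73 over HC, GER and DC. The 3 CD271high values were close together and no other array detected it, so that Lyve1 was at least 38.9-fold higher (6.95 ± 0.25, adjusted p = 1.1e-09). Cd163 was 11.08, 11.15 and 10.71 against 5.03 to 5.90, and at least 14.6-fold higher (5.77 ± 0.17, adjusted p = 3.3e-10). For both genes HC, GER and DC did not differ between neighbours (adjusted p of 0.16 or more). A second Cd163 probe was detected on no array.

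Trem2 encodes a receptor for lipids and lipoproteins that signals through the adaptor DAP12. Its level was 11.84, 11.59 and 12.23 on the CD271high arrays. It was 6.28, 5.77, 5.41 and 6.56 on HC, 5.67, 5.93 and 5.70 on GER, 7.53 and 8.75 on DC, and 5.55 on BM. It was detected on both DC arrays and on no HC or GER array, with the DC arrays between CD271high and the rest. The difference was 5.25 ± 0.28 (38.0-fold, adjusted p = 3.2e-08). In the order CD271high, DC, HC, GER, only HC and GER did not differ beyond their spread (adjusted p = 0.58).

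Cd68 encodes a heavily glycosylated protein of the lysosome membrane, and Cd14 the co-receptor that passes bacterial lipopolysaccharide to TLR4. Cd68 was 11.76, 11.77 and 12.17 on the CD271high arrays against 5.14 to 6.54 over HC, GER and DC, at least 27.6-fold higher (6.28 ± 0.25, adjusted p = 3.3e-09). Cd14 was 10.99, 11.47 and 10.86 against 5.02 to 5.77, at least 15.9-fold higher (5.68 ± 0.18, adjusted p = 5.0e-10). Both were undetected on every HC, GER and DC array, where no neighbours in the order of means differed (adjusted p of 0.61 or more).

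Taken population by population, all 10 genes were higher in CD271high than in HC (28.3% of all genes were), than in GER (14.5%) and than in DC (12.2%). These comparisons share the CD271high arrays. Against DC, where both arrays detected it, Trem2 differed by 3.74 ± 0.38 (13.4-fold, adjusted p = 1.7e-05). It was at least 27.2-fold above HC and at least 24.7-fold above GER, which did not detect it. Mrc1, detected on every HC array, differed from HC by 6.44 ± 0.33 (87.1-fold, adjusted p = 1.1e-08), and it was at least 131-fold above GER. Csf1r was at least 71.9-fold above GER. Lyve1 was at least 38.8-fold above HC, 35.2-fold above GER and 43.2-fold above DC.

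**Figure D2:**
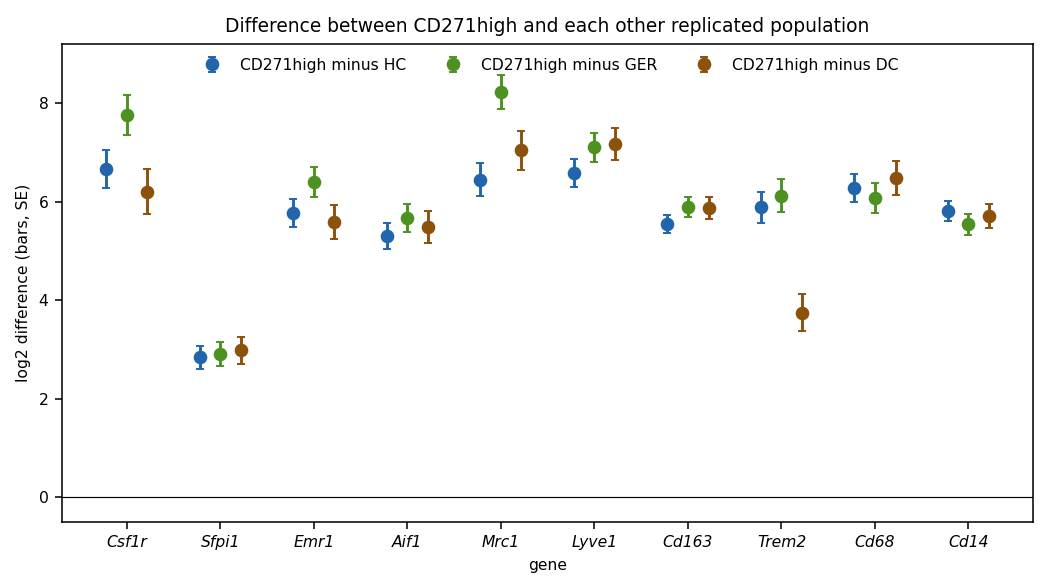
Fitted log2 difference (vertical axis, bars are SE) between CD271high and HC, GER or DC for each gene (horizontal axis), with 3 CD271high arrays against 4, 3 and 2. All differences lie above 2.8, and that of Trem2 from DC, whose arrays both detected it, is 3.74. Where the other population detected a probe on no array, the fitted value rests on levels below detection.

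HC was set against GER and DC, averaged with equal weight, to ask whether the GFP-positive sort differs from the GFP-negative epithelial sorts in these genes. Mrc1 was higher in HC (1.19 ± 0.29, 2.28-fold, adjusted p = 0.0056) and Trem2 lower (-0.95 ± 0.28, adjusted p = 0.016). The other 8 did not pass, and their differences lay between -0.18 for Cd14 and 0.55 for Lyve1. Of all genes 19.5% were called higher and 26.5% lower in this comparison, so 1 of 10 in each direction is below the background. Within beadchip 1, which holds 1 HC array, Mrc1 missed the threshold (1.18, adjusted p = 0.050), as did Trem2 (-0.69, adjusted p = 0.30). Beadchip 2 has no DC array, so HC could be set only against its single GER array there. Mrc1 was 1.85 and Trem2 0.22 higher in HC on that beadchip. Over all arrays Trem2 differed between HC and GER by 0.24 (adjusted p = 0.58), so its sign was the same. With beadchip as a block, Trem2 gave -0.84 (adjusted p = 0.067), and without DC B it gave -0.64 (adjusted p = 0.076).

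Between single populations outside CD271high, few of the genes passed. From HC to GER, Mrc1 was higher in HC with no overlap of arrays (1.78 ± 0.33, at least 1.5-fold, adjusted p = 0.00096), and so was Csf1r with overlap (1.10 ± 0.38, adjusted p = 0.036), where 18.5% of all genes were higher. The Csf1r call rested on single arrays: it was lost when HC A (adjusted p = 0.062), HC B (0.055), HC D (0.072), GER A (0.084) or GER C (0.15) was left out, and within beadchip 1 (0.22) and beadchip 2 (0.18). Mrc1 stayed past the threshold without HC D (1.47, adjusted p = 0.00064) and within beadchip 1 (1.75, adjusted p = 0.018). Within beadchip 2, with 1 GER array, Mrc1 differed by 1.85 and did not pass (adjusted p = 0.13).

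Trem2 was higher in DC than in HC or GER. It was lower in HC than in DC (-2.14 ± 0.36, at least 2.03-fold, adjusted p = 0.00065), where 20.3% of all genes were lower. It was also lower in GER than in DC (-2.38 ± 0.38, at least 1.84-fold, adjusted p = 0.0032), where 3.27% were. Both DC arrays lay on beadchip 1, and within it the differences were -1.86 from HC (adjusted p = 0.035) and -2.34 from GER (adjusted p = 0.031). Leaving out DC B, the brighter array, gave -1.53 from HC (adjusted p = 0.016) and -1.77 from GER (adjusted p = 0.061), so the second of these calls was lost. Leaving out DC A gave -2.75 from HC (adjusted p = 0.00050) and -2.99 from GER (adjusted p = 0.0033). By the probe used for each gene, Trem2 alone of the 10 was detected on DC A, and Trem2, Csf1r and Mrc1 on DC B.

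**Figure D3:**
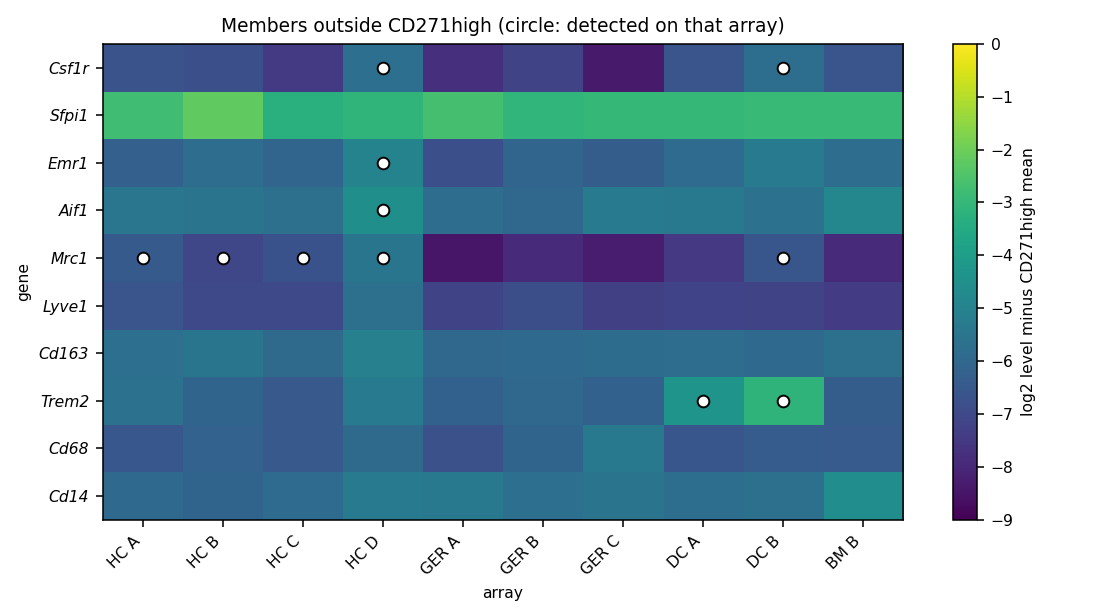
Log2 level of each gene (vertical axis) minus its CD271high mean (colour) on the 10 arrays outside CD271high (horizontal axis). Circles mark detection by the probe used for each gene: Mrc1 on HC A to D and DC B, Trem2 on DC A and B, Csf1r on HC D and DC B, Emr1 and Aif1 on HC D, and none on GER or BM.

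HC D read higher than the other HC arrays for most of the 10 genes. By the probes used, it detected 4 of the 10 genes, where HC A, B and C detected 1 each (Mrc1). It was the highest HC array for 9 of the 10, and the share over all genes is not given here. Dixon's ratio sets the gap between the outermost HC array and its neighbour against the range of HC. This ratio stayed below its critical value for each of the 10 genes, the largest being 0.817 for Aif1 on HC D. No HC array was thus called an outlier in these genes. Other marker lists were also higher on HC D. The Schwann and satellite glia list (7 genes tested) averaged 11.21 there and 8.55 to 9.19 on the other HC arrays. The pan-leukocyte list (11 genes) averaged 7.17 against 6.44 to 6.79, with 5 genes detected against 1 on each of the others. The pericyte list (5 genes) averaged 9.12 against 6.92 to 7.14, with 5 genes detected against 1 or 2. The mesenchyme list (9 genes) averaged 9.36 against 8.39 to 8.59, and the hair cell list 13.31 against 13.45 to 13.58. Their part in the Mrc1 and Csf1r levels was not tested. Over all alternatives run, 728 to 2049 genes of the whole table were called higher in CD271high than in the mean of HC, GER and DC. Without HC D and DC B together, a choice made after seeing the data, all 10 genes stayed higher in CD271high, with differences of 2.89 to 7.49. On that setting Mrc1 still differed between HC and GER (1.47, adjusted p = 0.00027) and Trem2 between GER and DC (-1.77, adjusted p = 0.033), whereas Csf1r did not pass between HC and GER (0.77, adjusted p = 0.058).

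BM, with 1 array, has no replicate check. None of the 10 genes was detected there, and each lay below every CD271high array. For 8 of the 10 the BM level lay inside the range of the 9 HC, GER and DC arrays. Cd14 was above that range, at 6.53 against a highest value of 5.77, and Lyve1 was below it, at 5.01 against a lowest value of 5.10. The pan-leukocyte list averaged 6.94 on BM against 11.49 to 11.52 on the CD271high arrays.

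Several probes of a gene were set side by side within CD271high. Emr1 had 3 probes: that used above read 12.16 to 12.50, another 12.72 to 13.14, and the last 5.99 to 7.44, detected on CD271high A only. The second Emr1 probe was detected on HC D (7.78) and DC B (7.13) as well. Aif1 likewise had 3, at 11.64 to 11.97, 11.30 to 11.83 and 6.48 to 6.99, the last detected on CD271high B only. Of the 16 probes 13 were detected on all 3 CD271high arrays.

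The 10 genes varied together across all arrays and less so outside CD271high. Pearson's r between pairs of them was 0.906 to 0.995 over the 13 arrays (45 pairs), and -0.272 to 0.863 with a median of 0.197 over the 10 arrays outside CD271high. These are descriptions over arrays that share populations and beadchips. The genes outside the 10 whose pattern over the 13 arrays was most like each of them were named by the same measure. A high r over the 13 arrays again reflects that common rise and adds no support. For Mrc1 these were P2ry6, F13a1 and C1qc (r of 0.994 to 0.997), for Csf1r C1qc, Fcrls and F13a1 (0.988) and for Emr1 Pld4, Fcrls and F13a1 (0.992 to 0.997). For Lyve1 they were Ccl4, Ms4a6d and P2ry13 (0.994 to 0.996), for Cd163 Fcgr2b, Ms4a6d and Btk (0.996 to 0.997), and for Aif1 Btk, Pld4 and Casp1 (0.993 to 0.994). Cd68 was most like Tlr7, Ms4a6d and Hk3 (0.992 to 0.994), Cd14 like Casp1, Ncf4 and Fcgr3 (0.993 to 0.994), and Sfpi1 like Cd86, Slc15a3 and Lyl1 (0.981 to 0.986). Trem2 had the lowest such values, 0.968 with Ang, 0.965 with Nckap1l and 0.961 with Ccl24.

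The partners of these genes were read from lists written from general knowledge, in the comparison of CD271high with the mean of HC, GER and DC. A gene could pass the filter on dim probes through CD271high alone and was then bound to differ, so the counts over tested genes describe these lists and support nothing about them. The count over all genes of a list on the array, with no filter, is given beside the main ones, where 11% of all genes were higher. That count also takes in genes detected on no array. Of the CSF receptors and ligands, 2 of 11 entries were tested and both were higher, Csf3r, the G-CSF receptor (1.37 ± 0.13, at least 1.14-fold), and Csf2ra, a GM-CSF receptor chain (0.74 ± 0.16). The ligands of Csf1r, Csf1 and Il34, were detected on no CD271high array and on 1 other array each, and did not enter the test. Of 10 myeloid transcription factors tested, 8 were higher, 1 (Id3) lower and 1 did not pass. With no filter 11 of 17 were higher and the other 6, Id3 among them, did not pass. Irf5, a factor of inflammatory gene expression, was 4.45 ± 0.16 higher (at least 6.54-fold), Ikzf1 2.93 ± 0.14 (at least 2.54-fold) and Irf8, a factor of monocyte and macrophage development, 2.90 ± 0.19. Maf and Cebpa, also known from macrophages, were detected on no CD271high array and not tested.

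Of the 14 genes of the Trem2 and DAP12 list, 8 were tested and were higher in CD271high, 4 of them detected on no HC, GER or DC array and another 2 on 1. Syk, Trem1, Trem3, Treml1, Treml2 and Treml4 were too dim to test, and with no filter 8 of 14 were higher and 6 did not pass. Tyrobp, which encodes DAP12 itself, was at least 19.8-fold higher (5.66 ± 0.25), and Cd33, an inhibitory lectin, at least 6.47-fold (4.17 ± 0.20). Apoe, a lipoprotein that binds Trem2, was 3.42 ± 0.18 higher and was detected on every HC, GER and DC array as well. Its means were 13.71 in CD271high, 11.98 in DC, 9.76 in GER and 9.13 in HC, and HC lay below the mean of GER and DC (-1.74, adjusted p = 7.6e-06). Tyrobp, by contrast, was undetected on both DC arrays, where Trem2 was detected, and its mean there was 5.88.

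Of 12 scavenger and lectin receptor genes tested, 9 were higher and 3 did not pass (11 of 22 higher with no filter). Stab1, which encodes the scavenger receptor stabilin-1, was 6.57 ± 0.28 higher, Clec4n, which encodes dectin-2, at least 8.73-fold (4.57 ± 0.24) and Siglec1, the sialic acid lectin of macrophages, at least 2.85-fold (3.56 ± 0.11). Fcna, which encodes a ficolin, was 4.72 ± 0.16 higher, but HC exceeded the GER and DC mean too, by 3.47 (adjusted p = 5.6e-09). Of 12 genes of lipopolysaccharide sensing, the pathway of Cd14, 9 were higher and 3 did not pass. Ly86, which encodes MD-1, was at least 38.0-fold higher (6.51 ± 0.22), and Cd180, which encodes the receptor MD-1 binds, at least 2.59-fold (3.16 ± 0.16). Of the lysosomal membrane genes related to Cd68, 4 were tested and detected on every array, and 3 of 4 tested were higher, by 0.39 to 0.82. Of the adhesion receptors related to Emr1, 1 of 3 tested was higher (Adgra2, 1.88 ± 0.38), and Adgre5, of the same EGF-TM7 subfamily, did not pass (0.60 ± 0.24, adjusted p = 0.060). Adgra2 read 12.28 on BM against a CD271high mean of 8.23.

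**Figure D4:**
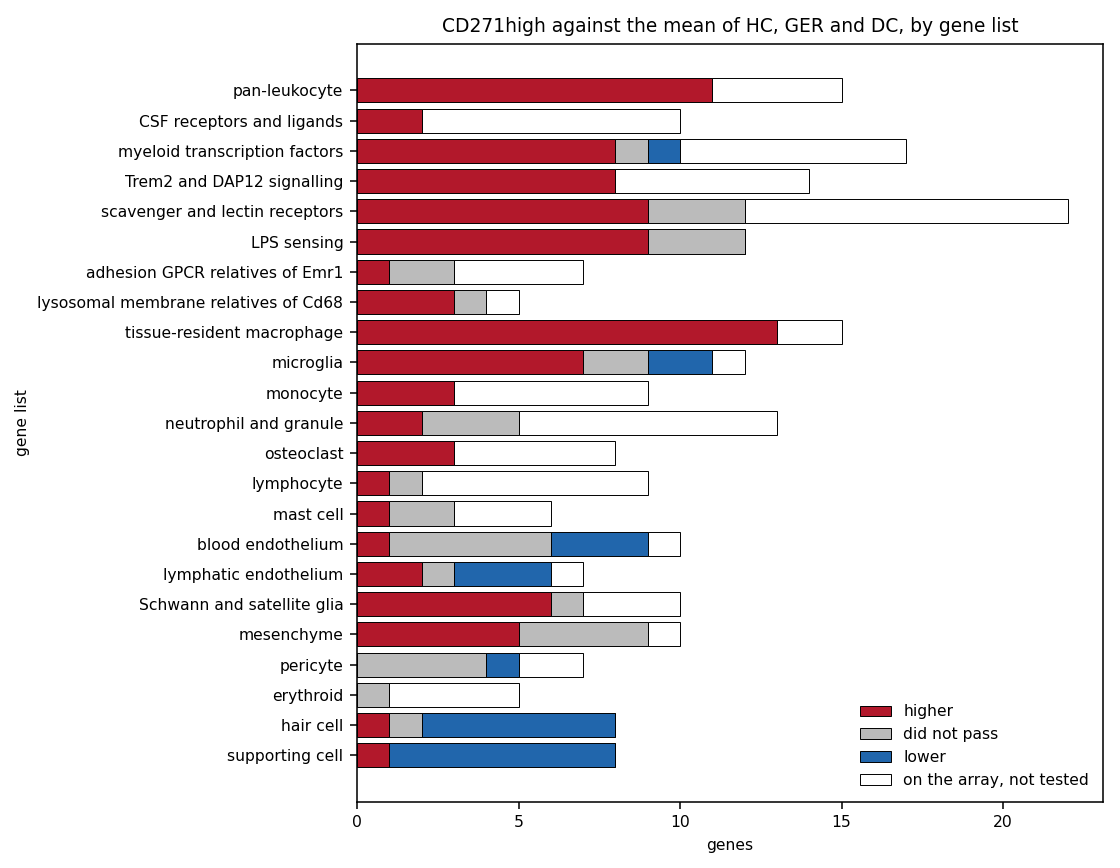
Number of genes (horizontal axis) of each list (vertical axis) that were higher, did not pass or were lower in CD271high against the mean of HC, GER and DC, with those on the array but too dim to test in white. Of the tested genes, 13 of 13 are higher in the tissue-resident macrophage list and 11 of 11 in the pan-leukocyte list, 6 of each detected on no HC, GER or DC array. The Schwann and satellite glia list is higher in 6 of 7, while 7 of 8 supporting cell genes are lower.

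Markers of the cell types that CD271high could hold were read in the same comparison. The 13 tested genes of the tissue-resident macrophage list were higher, 6 of them detected on no HC, GER or DC array, and with no filter 15 of 15 on the array were. Among them were F13a1 (7.44 ± 0.37), Ms4a6d (at least 48.6-fold), Pf4 (6.98 ± 0.42) and Ms4a7 (at least 51.8-fold). Of the 15, Maf was detected on no array and Timd4 on 1 CD271high array only. The 11 tested pan-leukocyte genes were higher, 6 of them detected on no HC, GER or DC array, and with no filter 14 of 15 were. They were led by Fcer1g (7.12 ± 0.34) and Coro1a (5.74 ± 0.34). Of the same list, Ptprc (CD45), Itgam (CD11b), Itgb2 and Cybb were too dim to test. Itgam and Cybb were detected on no array, and Ptprc and Itgb2 on 1 CD271high array each. The 14 called higher with no filter therefore include at least 1 gene detected on no array. Of 11 microglia-associated genes tested, 7 were higher, 2 lower (Sall1 and Olfml3) and 2 did not pass (7 of 12 higher and 2 lower with no filter). Fcrls, P2ry13, Cx3cr1 and Gpr34 were 5.27 to 7.10 higher.

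Of the monocyte list 3 of 11 entries were tested and higher (3 of 9 on the array with no filter). Lyz2 was at least 44.8-fold higher, Lyz1 differed by 6.25 ± 0.39 and Plac8 by 0.92 ± 0.21. Plac8 was detected on 1 CD271high array and on no HC, GER or DC array, so its difference rests mostly on values below detection. Its mean was 6.71 in CD271high, and BM, which detected it, read 7.48. Ccr2 and Ly6c1 were detected on no CD271high array. Of 5 neutrophil and granule genes tested, 2 were higher (Camp and Mmp9), and S100a8 did not pass (1.42 ± 0.82, adjusted p = 0.19). Of the osteoclast list 3 of 3 tested were higher (Tnfrsf11a, Ctsk and Mmp9), and 3 of 8 on the array with no filter. BM read above the CD271high mean for Ctsk (12.67 against 9.28) and Mmp9 (9.74 against 7.77), but not for Tnfrsf11a (5.61 against 9.44). Acp5, Calcr and Oscar were not tested, and Oscar alone of these was detected on a CD271high array. Of 2 lymphocyte genes tested 1 was higher (Cd79b, 3.02 ± 0.17, with HC also 2.20 above the GER and DC mean). Of 3 mast cell genes tested 1 was higher (Cpa3, 1.79 ± 0.42). Cpa3 was detected on 2 CD271high arrays and on no HC, GER or DC array, so its difference rests on dim values below detection. It did not pass with no filter, when the brightest of all its probes stood for the gene.

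Some genes of cells other than leukocytes were also higher in CD271high than in the mean of HC, GER and DC. Both lists that follow averaged higher still on the single BM array. Of 7 Schwann and satellite glia genes tested, 6 were higher and 1 did not pass, with Mbp up by 4.98 ± 0.65, Pmp22 by 4.80 ± 0.62 and Mal by 2.86 ± 0.32. The list averaged 12.65 to 12.78 on the CD271high arrays, 8.55 to 11.21 on HC, 9.39 to 9.60 on GER, 9.12 to 9.40 on DC and 13.28 on BM. Of 9 mesenchyme genes tested, 5 were higher, Col3a1 by 3.17 ± 0.77 and Fbln1 by 1.59 ± 0.34, and 4 did not pass. The mesenchyme list averaged 9.56 to 9.91 on the CD271high arrays, 8.39 to 9.36 on HC, 8.54 to 8.78 on GER, 8.95 to 9.23 on DC and 12.42 on BM. The part of glia and mesenchyme in the sort was not tested beyond these values.

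Lyve1 is also a lymphatic endothelial gene. Of 6 genes of that list tested, 2 were higher in CD271high (Reln, 2.59 ± 0.48, and Pdpn, 0.53) and 3 lower (Ccl21a, Prox1 and Nr2f2). Reln read 11.38 on BM against a CD271high mean of 9.77. Flt4, a defining receptor of that endothelium, was detected on no array. Ccl21a was detected on the 4 HC arrays only, at a mean of 13.27. The part of lymphatic endothelium in the Lyve1 level was not tested. Of 9 blood endothelium genes tested, 1 was higher (Emcn, 1.85 ± 0.50), 3 lower and 5 did not pass. Of 5 pericyte genes tested, 4 did not pass and Notch3 was lower.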

How the data were processed

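Per the file headers, the deposited scanner table holds the mean bead intensity of each probe on 13 Illumina arrays, not normalized, with a detection p-value beside each. A second deposited table holds log2 values that the authors had normalized (median 8.14 on every array, the same ranks within each array as the scanner signal). For the scanner settings: not given in the sources used here. RNA extraction used an XS kit from Macherey-Nagel and biotin labelling a MessageAmp kit from Ambion, per the labels. Groups came from the sample titles; GER C carries the letter A in its description, and the title was followed. No column of per-sample values was left unmatched.

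Probes were named by accession or Entrez ID from the GRCm38.p6 gene table (24358 matched, 1339 kept the file's symbol). With limma 3.58.1 (R 4.3.3), neqc gave background-corrected (offset 16), quantile-normalized log2 levels. The filter asked for 2 or more arrays with detection p under 0.01, which 13192 probes met, and the brightest probe stood for each of 10088 genes. lmFit fitted 1 mean per population over 13 arrays (8 residual and 3.7 prior degrees of freedom), followed by eBayes. Two-sided p-values were adjusted by Benjamini and Hochberg's method over all genes, at a threshold of 0.05. The number of arrays limits the precision. The fit was tested on simulated data.

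The 10 genes, the 24 marker and pathway lists (256 entries, 242 on the array, 158 tested; some genes stand in several) and the tests were chosen with earlier results of these data known. Named were all 10 genes, of each list up to 4 tested genes with the largest difference, Ngfr, Mcam and Atoh1, and for each of the 10 genes the 3 others with the highest Pearson's r. Other genes of the lists were named after their values were seen. The letters were not used as pairs. Deviations from the population means correlated weakly between same-lettered arrays of different populations (15 pairs, r of -0.13 to 0.18, median 0.054, 4 of them over 0.1). Arrays of other letters gave a median of -0.0004 (38 pairs, 8 over 0.1). With 2 to 4 arrays in a replicated population, this check cannot exclude pairing. Alternatives changed the background correction, scaling, offset, filter, probe choice, variance model, beadchip and replicate terms and the arrays used.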

Additional observations from a re-analysis of the deposited data

How the results depend on the processing

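Every one of the 10 genes kept a higher level in CD271high than in the mean of HC, GER and DC, and stayed past the threshold, in each alternative in which it was tested. Requiring detection on 4 arrays left 5 of the genes to test, those also detected outside CD271high. All 5 were higher, in that comparison and against HC, GER and DC singly. Across the alternatives, 728 to 2049 genes of the whole table were higher in CD271high than in the mean of HC, GER and DC. Without background correction, and in the authors' deposited log2 values, the differences were smaller, down to 1.34 for Sfpi1. BM stayed inside the range of HC, GER and DC for 8 genes, and 16 of 16 probes stayed higher, in every alternative run for them.

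Within beadchip 2, with 5 arrays, fewer genes of the whole table passed: 728 higher in CD271high against the mean of HC, GER and DC, 1262 against HC and 337 against GER, and 848 higher and 581 lower in HC against GER. Within beadchip 1, 1689 genes were lower in HC against GER and DC. For HC against GER and DC, 0 of the 10 genes were higher by limma's test within either beadchip and 0 lower within either or with beadchip as a block. At an unadjusted p under 0.05, 1 was higher within each beadchip, and 0 were lower within beadchip 1, 1 within beadchip 2 and 1 with the block. Within beadchip 2, which lacks DC, the comparison was HC against GER alone. Trem2 gave 0.22 there, where HC against GER over all arrays gave 0.24. Leaving out 1 array gave 1 to 2 of the genes higher and 0 to 1 lower, and Csf1r ran from -0.0069 without HC D to 0.58 without HC C.

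For HC against GER, 1 of the genes (Mrc1) was higher with no filter, within beadchip 1, on the arrays of the compared populations only, and without HC D and DC B, and 0 within beadchip 2; leaving out 1 array gave 1 to 2. For HC against DC, leaving out 1 array gave 1207 to 2171 genes lower over the whole table. For GER against DC it gave 141 to 374 over the whole table, and 179 were lower without HC D and DC B. Of the 10 genes, 0 were lower than DC in GER without DC B by limma's test (1 at an unadjusted p under 0.05) and 3 (Trem2, Csf1r and Mrc1) without HC D. With trend and robust moderation 2 were (Trem2 and Csf1r). The replicate block, fitted although the labels do not say that a letter stands for a pair, also gave 2 (Trem2 and Csf1r). That block moved no other count of these genes. The causes of these moves were not tested, beyond the fewer arrays that each subset holds. Of the 10 genes 5 were undetected on every array outside CD271high, which limits what can be read of differences among HC, GER and DC.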
